A study of Rattus norvegicus with 10 samples.

Results

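Pancreatic islets of DR+/+ rats were set against islets of F344 rats on Affymetrix arrays. DR+/+ is a BioBreeding line that stays free of diabetes unless the disease is induced, and F344 is an unrelated inbred strain that served as a healthy control. The series has 10 arrays in 5 groups of 2, and this comparison used 4 of them, DR+/+ replicates 1 and 2 and F344 replicates 1 and 2. Neither group carries lyp, the lymphopenia mutation of BioBreeding rats, which lies in Gimap5. All 31042 probe sets other than the 57 control probe sets were tested, of 31099 in all. The rats of both groups were 40 days old, fasted males. DR+/+ rats came from crosses of breeders that carried a single copy of lyp. The further groups are JBlyp/lyp (diabetes prone, homozygous for lyp), JB (also inducible, without lyp) and F344lyp, of which JB was used for a second test of where DR+/+ stands apart. Islets were freed by collagenase in the pancreatic duct and purified on a density gradient, so that a preparation can hold exocrine, ductal, vascular and mesothelial cells beside endocrine cells. The labels name the 2 arrays of a group as biological replicates and do not say whether each is 1 animal or a pool. The p-values then rest on the spread between the samples of a group, pooled over all 10 arrays and moderated over probe sets. With 2 arrays against 2 no permutation test could go below 0.333. The colonies were kept at more than 1 institution, and neither the site nor the hybridisation batch of an array is given, so that group and batch cannot be told apart.

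Islets hold beta cells, which make insulin, beside alpha, delta and PP cells, which make glucagon, somatostatin and pancreatic polypeptide. Prohormones are cut and packed in dense-core granules, a task that loads the endoplasmic reticulum, and insulin release is driven by ATP from mitochondria. Beta cells are known for low levels of several antioxidant enzymes, and the study asked whether islets of BioBreeding rats are less able to handle oxidative stress than those of other rats.

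The defining beta cell markers Ins1 and Ins2 were bright in all 4 arrays, as the label of pancreatic islets requires. Ins1 had a log2 intensity of 13.87 and 13.86 in DR+/+ and of 14.27 and 14.26 in F344, and Ins2 had 13.42 and 13.42 in DR+/+ and 13.86 and 13.76 in F344. The 2 DR+/+ arrays correlated with each other at r = 0.9905 across probe sets and the 2 F344 arrays at 0.9965, against 0.9255 to 0.9315 between the groups. DR+/+ stood apart from all 8 other arrays (r = 0.9139 to 0.9426), while arrays of different groups among those 8 reached 0.954 to 0.9918. The control probe sets for the 3′ end of Gapdh read 8.855 and 8.855 in DR+/+ and 11.002 and 10.757 in F344. Their 3′ minus 5′ difference, a sign of RNA integrity, was 3.18 and 3.39 in DR+/+ and 2.43 and 2.35 in F344. The same difference for beta-actin ran the other way, at 2.57 and 2.86 in DR+/+ and 3.06 and 2.95 in F344. Yet the beta-actin signals themselves were lowest in the 2 DR+/+ arrays at both ends. The 3′ end read 8.65 and 8.87 in DR+/+ and 10.17 and 10.05 in F344. The 5′ end read 6.08 and 6.01 in DR+/+ and 7.12 and 7.10 in F344.

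A probe set was called where limma gave a Benjamini-Hochberg adjusted p under 0.05 over all 31042. In DR+/+ islets 4832 probe sets were called higher (15.6%) and 5374 lower (17.3%) than in F344 islets, 32.9% together. Over the 14217 genes, each taken at its brightest probe set, 2316 rose in DR+/+ (16.3%) and 3384 fell (23.8%), 40.1% together, with a median log2 difference of -0.06. Of these, 1108 rose and 1692 fell by at least 1 on the log2 scale, 19.7% of all genes. The arrays of the groups did not overlap for 72.2% of probe sets and 77.8% of genes, so that non-overlap alone says little here. The counts below for gene lists are to be read against 16.3% and 23.8%. Without F344 replicate 1 the calls came to 6217 probe sets, and without F344 replicate 2 to 6609. With the Gapdh 3′ minus 5′ difference as a covariate, which separates the 2 groups itself, 90 probe sets were called (49 higher and 41 lower), and its part in the other calls cannot be told apart from that of the group. Of the 144 genes named by rule, all of which were called, 16 stayed called with the covariate. Of these 144 genes, most of which were picked by the size of their difference, 142 kept their direction with the covariate. For 119 the difference lay within 1.5 times of that without it, for example Cpa1 at -3.82 without and -4.14 with it. Others moved further, Lox from 2.90 to 4.40, Onecut1 from 1.41 to 0.46 and Hsp90ab1 from -1.08 to -0.23. The endothelial median, described further on, was 1.39 with the covariate and 1.36 without it. Of the 30 endothelial genes, 2 were called higher with it and 24 without it. Most of the gene lists below had 0 calls with the covariate. A lost call alone does not tell how far the difference moved, and the part of RNA integrity was not tested. The slope of the covariate rests only on the gaps between the 2 arrays of each group. Those gaps are smaller than the gap between DR+/+ and F344. Sizes and directions with the covariate are therefore poorly determined, and no conclusion is drawn from them.

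**Figure D1:**
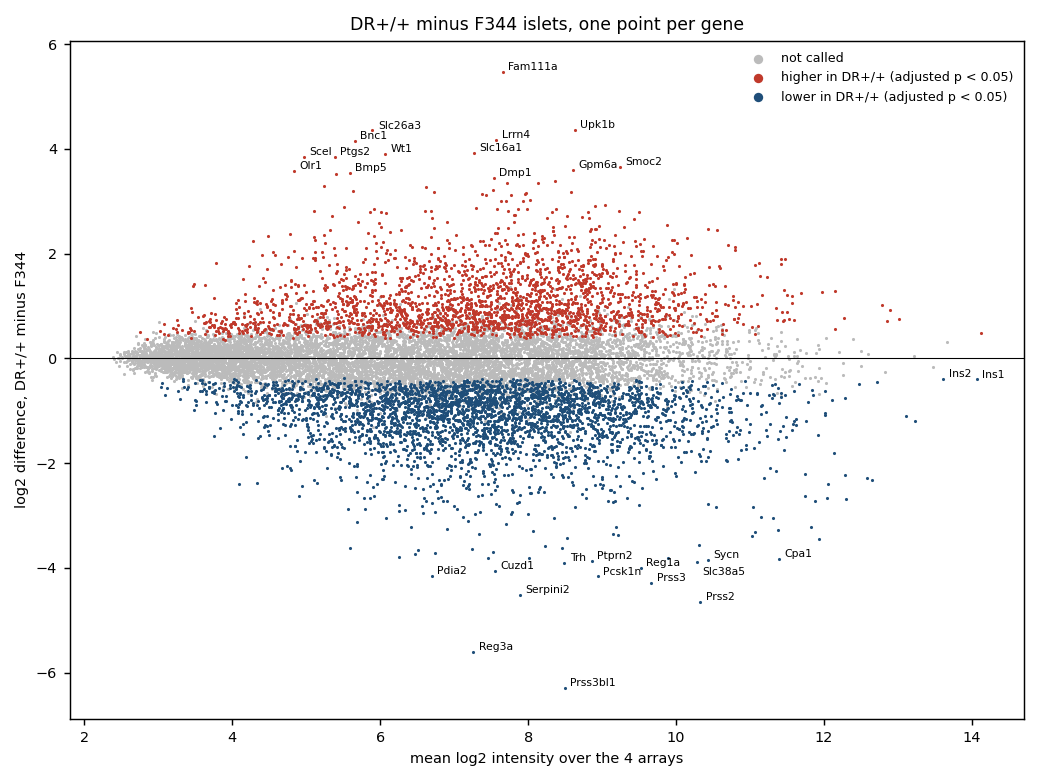
Each point is 1 of 14217 genes: the horizontal axis is its mean log2 intensity over the 4 arrays and the vertical axis the log2 difference of DR+/+ minus F344, with called genes coloured. The largest differences lie at Fam111a (5.48) and at Prss3bl1 (-6.29), while Ins1 and Ins2 sit near -0.40 and -0.39 at the bright end.

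The largest rise was that of Fam111a, a serine protease with a known part in DNA replication in human cells. Fam111a read 10.42 and 10.37 in DR+/+ and 5.04 and 4.80 in F344, a difference of 5.48 (SE 0.15, adjusted p = 3.29e-07). It was also high in JB (11.67 and 11.73) and in JBlyp/lyp (11.97 and 11.68) and low in F344lyp (5.59 and 5.71), so that the 6 arrays of BioBreeding lines lay above the 4 arrays of F344 background. DR+/+ was lower than JB by this measure (difference -1.30, adjusted p = 0.000176). Of the 14 largest rises, 5 were genes of the mesothelium, described further on. The rest beside Fam111a were Slc26a3, a chloride and bicarbonate exchanger (4.35), Slc16a1, the monocarboxylate transporter that healthy beta cells keep very low (3.92), Ptgs2, the inducible cyclooxygenase (3.85), and Scel, a protein of the epithelial envelope (3.85). They were followed by the matricellular protein Smoc2 (3.65), the oxidised LDL receptor Olr1 (3.58), the growth factor Bmp5 (3.53) and the matrix protein Dmp1 (3.44). Several of these genes were dim in F344, such as Scel (3.26 and 2.84), Ptgs2 (3.21 and 3.72) and Olr1 (3.08 and 3.02), well below the array medians of 5.39 to 5.44. There the difference depends on the floor of the scale and may understate the change, so the order among these genes is not read.

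Slc26a3 had 8.10 and 8.05 in DR+/+ and 3.62 and 3.82 in F344. Slc16a1 had 9.15 and 9.31 in DR+/+ and 5.31 and 5.31 in F344. For both genes the arrays of the 2 groups lay far apart, and the JB arrays were near F344 (3.39 and 3.38 for Slc26a3, 4.97 and 5.85 for Slc16a1). Both genes were picked for large rises over F344 and over JB, so their gaps to both groups are no further result. Among the 14 largest rises, 5 genes had 7 further probe sets on the array, of which 2 were called in the same direction and none in the opposite one. Both of these belong to Lrrn4. The second probe sets of Wt1 (0.13), Slc16a1 (-0.28) and Bmp5 (-0.03) and those of Smoc2 (0.27 and 0.01) were not called. Since the brightest probe set stands for a gene, its other probe sets are dimmer by construction, here and below.

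Genes of the endocrine granule and of glucose sensing fell in DR+/+ islets. Of 25 such genes measured, none rose and 21 fell, with a median difference of -1.54 against -0.06 over all genes. The mean over the list was 8.61 and 8.59 in DR+/+ and 10.35 and 10.32 in F344. Lower calls on this list came to 2 of 25 with the Gapdh covariate. In such bulk RNA, fewer cells of a type and less RNA per cell cannot be told apart. Pcsk1n, which encodes proSAAS, an inhibitor of prohormone convertase 1, had 6.89 and 6.83 in DR+/+ and 11.13 and 10.92 in F344 (difference -4.16, SE 0.36, adjusted p = 2.74e-05). Ptprn2 and Ptprn, the granule phosphatase-like proteins that are also autoantigens in type 1 diabetes, fell by 3.86 and by 3.22. Pcsk2, the convertase that finishes proinsulin and cuts proglucagon, read 8.49 and 8.57 in DR+/+ and 12.14 and 12.05 in F344, and fell by 3.56 (SE 0.17). JB read 11.62 and 11.57, and DR+/+ differed from JB by -3.06 (adjusted p = 6.17e-06). In the list as a whole 21 of 25 genes were also lower in DR+/+ than in JB, with a median of -1.78 in that comparison, where 15.5% of genes were higher and 18.4% lower over all genes. The 2 comparisons share the DR+/+ arrays and are given side by side for that reason.

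The insulin genes, which lie at the bright end of the scale in all 10 arrays, were also lower, Ins1 at -0.40 (SE 0.12, adjusted p = 0.0281) and Ins2 at -0.39 (SE 0.13, adjusted p = 0.0411), and both calls were lost without any 1 of the 4 arrays. Iapp, which is stored and released with insulin, had 10.72 and 10.54 in DR+/+ and 12.87 and 12.82 in F344, and fell by 2.21 (SE 0.27, adjusted p = 0.000192). Gcg, the glucagon gene of alpha cells, had 11.19 and 11.27 in DR+/+ and 13.12 and 12.95 in F344, and fell by 1.80 (SE 0.17). Thus the glucagon arrays did not overlap, and the gap was several times that between the 2 arrays of a group. Sst, the somatostatin gene of delta cells, had 10.53 and 10.51 in DR+/+ and 13.46 and 13.04 in F344, and fell by 2.73 (SE 0.18). Ppy differed by -1.16 (adjusted p = 0.0148), a call lost without DR+/+ replicate 1 and without F344 replicate 1. Ins1 and Ins2 are near-identical paralogs, so that a probe set may bind transcripts of both. Array signals this bright can be compressed, so the size of the insulin differences is not read against those of the other hormones.

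Transcription factors that keep islet cells in their state fell too. Of 16 measured, 11 fell and 1, Hhex of delta cells, rose (0.99), with a median of -1.07. Pdx1, a factor needed to form the pancreas and to run the insulin gene, had 7.05 and 6.80 in DR+/+ and 9.46 and 9.31 in F344, and fell by 2.46 (SE 0.22, adjusted p = 2.82e-05). Nkx2-2, Mafa and Nkx6-1, further factors of the mature beta cell, fell by 2.21, by 2.09 and by 2.03. Against JB, 13 of the 16 were lower in DR+/+ and 1 higher. Of 12 genes of the other endocrine cells, 8 fell and 1 rose (median -0.99), among them Slc38a5, an amino acid transporter of alpha cells (-3.89), and Rbp4, the retinol carrier (-1.97). Without F344 replicate 1, 5 of these 12 were lower. Of 18 ion channel genes, 9 fell and 2 rose (median -0.63). The potassium channel genes Kcnh2 and Kcnma1 fell by 2.06 and by 1.34, and Cacna2d1, a calcium channel subunit, fell by 1.58, whereas the potassium channel gene Kcnd3 rose by 1.97. The second riser was Kcnq1 (0.80), and 1 ion channel gene was higher without DR+/+ replicate 2 or without F344 replicate 2. Trh, the precursor of thyrotropin-releasing hormone, which rat beta cells make in early life, read 6.52 and 6.55 in DR+/+ and 10.50 and 10.37 in F344 and fell by 3.90.

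**Figure D2:**
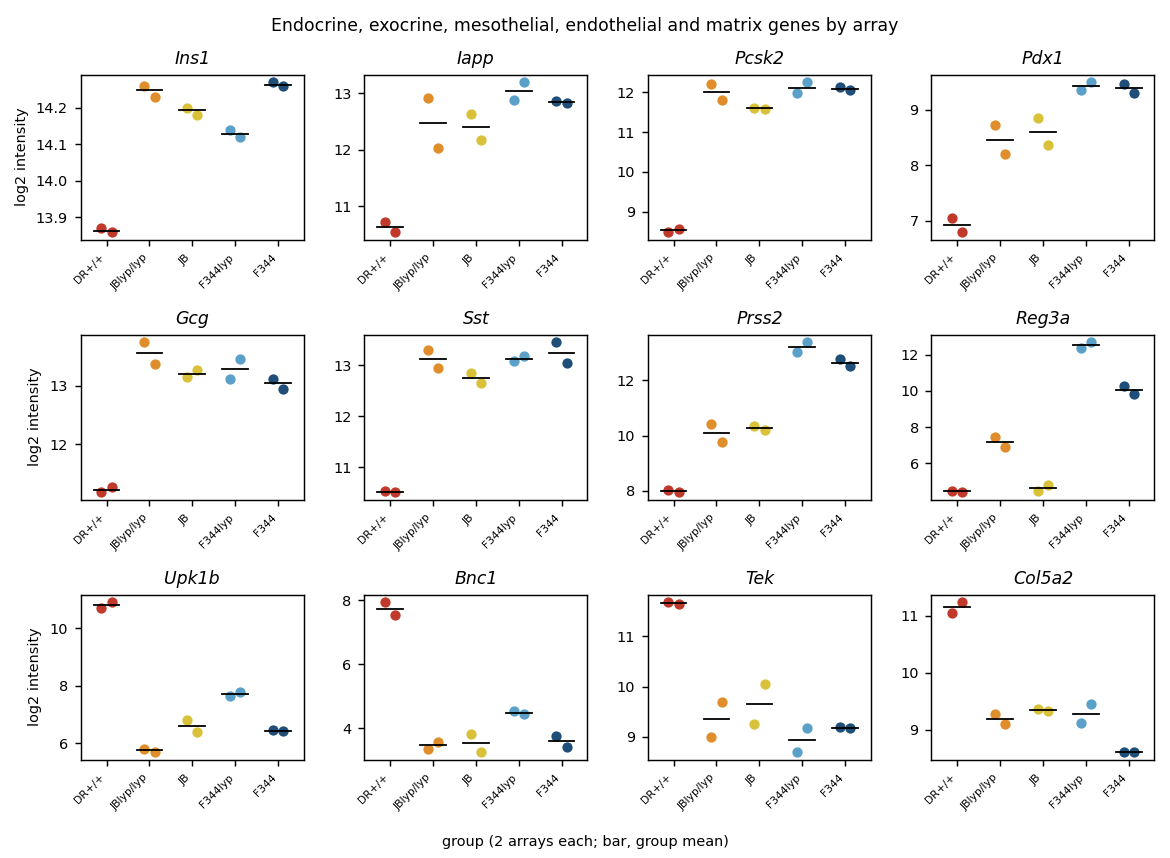
Log2 intensity of 12 genes in each of the 10 arrays, 2 points per group with a bar at the group mean, in the order DR+/+, JBlyp/lyp, JB, F344lyp and F344. The DR+/+ points are lowest for Pcsk2 (8.49 and 8.57, against 12.14 and 12.05 in F344) and highest for Upk1b (10.70 and 10.92, against 6.47 and 6.42 in F344), and each vertical axis has its own range.

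Genes of acinar cells, which make digestive enzymes, were among the largest falls. Of 33 acinar genes, 31 fell and 1 rose, with a median of -2.66. The list averaged 8.81 and 8.78 in DR+/+ and 11.40 and 11.22 in F344. Prss3bl1, a gene of the trypsin family that is not on the list, had 5.75 and 4.96 in DR+/+ and 11.69 and 11.60 in F344. The difference was -6.29 (SE 0.30, adjusted p = 1.96e-06), or 78.0-fold lower in DR+/+. It was also low in JB (6.36 and 6.64) and in JBlyp/lyp (6.99 and 7.80), and high in F344lyp (12.91 and 13.24). The arrays of BioBreeding lines thus all lay below those of F344 background, and DR+/+ differed from JB by -1.14. Prss2, which encodes a trypsinogen, had 8.05 and 7.96 in DR+/+ and 12.76 and 12.54 in F344 and fell by 4.64. Trypsinogen genes are close in sequence, and 1 probe set can bind several of them. The zymogen granule genes Cuzd1 and Sycn fell by 4.05 and by 3.85, the pancreatic serpin Serpini2 by 4.51 and the carboxypeptidase Cpa1 by 3.82. Smaller falls were seen at Prss1 (-2.31), the lipase Pnlip (-2.69) and the elastase Cela1 (-2.22), and the amylase gene Amy2a3, which is bright in both groups, had 12.53 and 12.45 in DR+/+ and 13.00 and 12.87 in F344. The 1 riser was Nr5a2, a nuclear receptor that acinar cells use (1.10), and Klk1 did not pass (0.10). The JB arrays averaged 9.93 and 9.67, and 23 of the 33 genes were lower and 2 higher in DR+/+ than in JB (median -1.26). With the Gapdh covariate the acinar median was -2.51 and 2 of the 33 were lower.

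Regenerating proteins are lectins secreted by acinar and stressed islet cells. Of 4 measured, 3 fell and none rose (median -3.90). Reg3a had 4.50 and 4.42 in DR+/+ and 10.28 and 9.84 in F344 (difference -5.60, SE 0.22, adjusted p = 1.02e-06), and F344lyp arrays were higher still (12.39 and 12.70). Reg1a and Reg3b fell by 3.99 and by 3.81, and Reg3g did not pass (0.08). JB read 4.47 and 4.79 for Reg3a and 7.66 and 7.79 for Reg1a, and the differences of DR+/+ from JB, -0.17 (adjusted p = 0.627) and -0.20 (adjusted p = 0.734), were not called, while Reg3b was higher in DR+/+ than in JB (0.69, adjusted p = 0.0265).

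Duct genes were mixed, with 6 of 18 higher, 4 lower and a median of 0.19. The transporter genes that drive bicarbonate secretion were among the risers. Slc4a4, the sodium bicarbonate cotransporter, had 9.40 and 9.65 in DR+/+ and 7.07 and 7.26 in F344 and rose by 2.36, while its dimmer probe set did not pass (0.54). The chloride channel gene Cftr rose by 1.44. The tetraspanin gene Tspan8 rose by 1.46. Onecut1, a transcription factor of liver and duct, rose by 1.41, a call lost without F344 replicate 1. The keratin genes of ducts went opposite ways, Krt19 with 0.83 and Krt7 with -1.16. Lower calls came to 2 without DR+/+ replicate 2 and to 1 without F344 replicate 1.

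Genes of the mesothelium, the sheet of cells that covers the pancreas, were among the largest rises. Of 11, 7 rose and 2 fell, with a median of 1.23, and the list averaged 8.46 and 8.45 in DR+/+ and 6.64 and 6.58 in F344. Upk1b, a uroplakin found in mesothelium and urothelium, had 10.70 and 10.92 in DR+/+ and 6.47 and 6.42 in F344 (difference 4.37, SE 0.16, adjusted p = 7.11e-07). Lrrn4, a membrane protein of mesothelial cells, rose by 4.17, and its 2 other probe sets rose by 3.51 and by 2.82. Bnc1, a zinc finger factor, had 7.95 and 7.53 in DR+/+ and 3.74 and 3.42 in F344 and rose by 4.16. Wt1, the Wilms tumour factor that marks mesothelium, rose by 3.90, and the glycoprotein gene Gpm6a by 3.59. The rule picked these genes among those with non-overlapping arrays, so their lack of overlap is no further result. All were also higher in DR+/+ than in JB (Upk1b 4.21, Lrrn4 3.12, Bnc1 4.20, Wt1 3.58, Gpm6a 3.24), a comparison that shares the DR+/+ arrays. The 2 that fell were Msln, the gene of mesothelin and a defining marker, with 10.91 and 10.99 in DR+/+ and 12.24 and 12.17 in F344 (-1.25), and the protease inhibitor gene Slpi (-0.82). Without F344 replicate 1, 1 of the 11 was lower.

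Most endothelial genes rose. Of 30, 24 rose and 2 fell, with a median of 1.36, and the list averaged 9.21 and 9.27 in DR+/+ and 7.97 and 7.93 in F344. Tek, the angiopoietin receptor, had 11.68 and 11.65 in DR+/+ and 9.19 and 9.18 in F344, and rose by 2.48 (SE 0.29, adjusted p = 0.000164). Sox17, a factor of arterial endothelium, rose by 3.34, although its 2 dimmer probe sets did not pass (0.14 and 0.11). Esm1, a proteoglycan secreted by endothelium, and the adhesion receptor gene Adgrl4 rose by 2.52 and by 2.36. The defining marker Pecam1 rose by 0.98, and Kdr, a receptor for vascular endothelial growth factor, was 3.99-fold higher in DR+/+. Vwf, stored in endothelial granules, fell by 0.87 and the receptor partner Ramp2 by 1.29, and 1 of the 30 was lower without DR+/+ replicate 1 or without either F344 array. Against JB, 25 of the 30 were higher in DR+/+ and none lower (median 1.25).

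Of 45 genes of matrix and stellate cells, 32 rose and 3 fell (median 0.97). Col5a2, a fibrillar collagen chain, had 11.05 and 11.24 in DR+/+ and 8.61 and 8.61 in F344 and rose by 2.54 (SE 0.15, adjusted p = 4.52e-06), with a second probe set at 2.88. Lox, which crosslinks collagen and elastin, rose by 2.90, the pericyte gene Rgs5 by 2.28 and the microfibril gene Fbn1 by 2.17. The fallers were the contractile genes Acta2 (-0.77), Tagln (-0.81) and Des (-0.89), and 1 of them was lower without DR+/+ replicate 1 and none without any of the other 3 arrays. Against JB, 27 were higher and none lower (median 0.89). Higher and lower calls against F344 both came to 0 with the Gapdh covariate. In each of these vascular, matrix and mesothelial lists the mean of both DR+/+ arrays lay above that of all 8 other arrays, as the plot of list means shows.

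**Figure D3:**
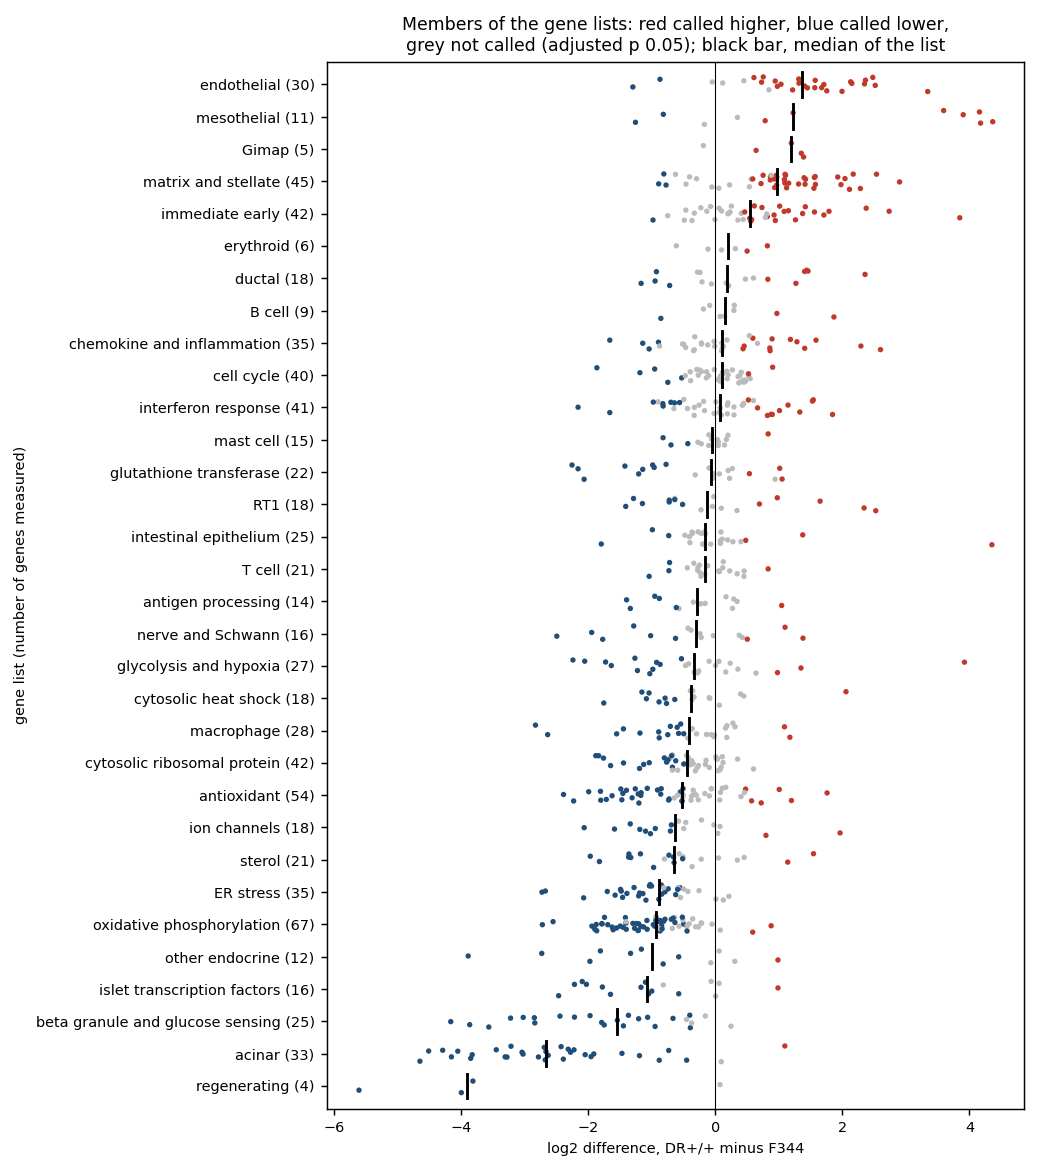
Every measured member of the 32 gene lists, placed by its log2 difference of DR+/+ minus F344, with red for called higher, blue for called lower and a black bar at the median of the list. Medians run from 1.36 for the endothelial list to -3.90 for the regenerating list, and the lists are ordered by median.

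Antioxidant genes, the subject of the study's question, fell more often than they rose. Of 54 measured, 27 fell and 6 rose, with a median of -0.52, and the list averaged 7.59 and 7.55 in DR+/+ and 8.20 and 8.12 in F344. Cth, the enzyme that makes cysteine from cystathionine, had 3.14 and 3.15 in DR+/+ and 5.64 and 5.42 in F344 (difference -2.39, SE 0.17, adjusted p = 1.02e-05). JB read 3.12 and 2.96, beside DR+/+, and F344lyp was highest at 8.15 and 8.57. Ucp2, a mitochondrial carrier linked to superoxide output, had 7.45 and 7.24 in DR+/+ and 9.59 and 9.56 in F344, and fell by 2.23 (SE 0.21). Gpx3, the secreted glutathione peroxidase, and Gpx4, which reduces lipid peroxides, fell by 1.99 and by 1.80, while a dimmer probe set of Gpx4 did not pass (-0.01). The superoxide dismutase genes Sod1 and Sod2 fell by 1.40 and by 0.50, whereas Cat, the catalase gene, did not pass (-0.06). The 6 risers were Gpx8 (1.76), Gclc (1.20), Nfe2l2 (1.01), Txnip (0.72), Mt1 (0.57) and Sesn1 (0.48), of which Nfe2l2 encodes the factor Nrf2 that turns on antioxidant genes. Without any 1 of the 4 arrays 3 were higher. With the Gapdh covariate, 0 of the 54 were called lower and 0 higher than in F344. Against JB, 13 of the 54 were lower in DR+/+ and 7 higher (median -0.17). Of 22 glutathione transferase genes, 9 fell and 3 rose (median -0.07), the largest falls being Gstz1 (-2.25), Gstm7 (-2.16), Gstt1 (-2.06) and Mgst3 (-1.42).

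Genes of the endoplasmic reticulum stress response fell without exception among those called. Of 35, 26 fell and none rose (median -0.89), and the list averaged 8.66 and 8.69 in DR+/+ and 9.72 and 9.63 in F344. Manf, a protein of the endoplasmic reticulum that protects beta cells, had 7.78 and 7.64 in DR+/+ and 10.50 and 10.37 in F344 (difference -2.72, SE 0.13, adjusted p = 1.96e-06). Sdf2l1, a chaperone partner, fell by 2.67. Asns, the asparagine synthetase that the factor ATF4 turns on, had 8.15 and 8.22 in DR+/+ and 10.34 and 10.16 in F344 and fell by 2.07, and Atf4 itself fell by 1.70. Lower calls against F344 came to 1 of 35 with the Gapdh covariate. Against JB, 28 of the 35 were lower and none higher (median -1.04). Of 18 cytosolic heat shock genes, 8 fell and 1 rose (median -0.38). Hspa4l, Stip1 and Hsp90ab1 fell by 1.75, by 1.15 and by 1.08, the last of which lost its call without DR+/+ replicate 2 or F344 replicate 2. The small heat shock gene Hspb8 rose by 2.06, while its dimmer probe set did not pass (-0.01).

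Nuclear genes of the respiratory chain and the ATP synthase fell in DR+/+. Of 67, 47 fell and 2 rose (median -0.93), and the list averaged 8.65 and 8.61 in DR+/+ and 9.72 and 9.52 in F344. Ndufa11 of complex I had 5.74 and 5.23 in DR+/+ and 8.44 and 7.98 in F344 (difference -2.72, SE 0.31, adjusted p = 0.000128). Atp5f1d, the delta subunit of the ATP synthase, fell by 2.55, and the cytochrome oxidase genes Cox8a and Cox6a1 by 1.94 and by 1.89. The 2 risers were Uqcrc2 (0.88) and Cox5a (0.59). Of the 67, 0 were called lower and 0 higher with the Gapdh covariate. Without F344 replicate 1, 25 of the 67 were lower, and 1 was higher without DR+/+ replicate 2 or either F344 array. The JB arrays averaged 9.30 and 8.98, with 22 genes lower and 1 higher in DR+/+ than in JB (median -0.50). Of 42 cytosolic ribosomal protein genes, 15 fell and none rose (median -0.44), among them Rps15 (-1.88), Rplp0 (-1.83), Rpl11 (-1.76) and Rpl6 (-1.64). Of the 42, 6 were lower without F344 replicate 1 and 9 without any 1 of the other 3 arrays, with 1 higher without DR+/+ replicate 1. The call of Rplp0 was lost without any 1 of the 4 arrays and that of Rps15 without DR+/+ replicate 1 or F344 replicate 1. Of the 4 arrays compared, both lists were lower in the DR+/+ arrays, which had the higher Gapdh 3′ minus 5′ difference. The part of that difference in the result cannot be told apart from that of the group. In JB the Gapdh difference was 3.71 and 3.31, above F344 too, and the ribosomal list averaged 11.05 and 10.68. That list averaged 10.46 and 10.48 in DR+/+ and 11.11 and 10.87 in F344.

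Glycolysis and hypoxia genes were lower in 11 of 27 cases and higher in 3 (median -0.33). Mif, an inflammatory cytokine with a place on the hypoxia list, fell by 2.24, the enolase gene Eno1 by 2.05 and the triose phosphate isomerase gene Tpi1 by 1.72. The lactate carrier Slc16a1, whose values are given above, was the largest exception on that list. Of 21 genes of sterol synthesis and uptake, 11 fell and 2 rose (median -0.65). The squalene epoxidase gene Sqle had 5.26 and 5.70 in DR+/+ and 7.38 and 7.51 in F344 and fell by 1.96, and Sc5d, a later step, fell by 1.82. The fatty acid synthase gene Fasn fell by 1.36, a call lost without DR+/+ replicate 1 or F344 replicate 1. The cholesterol carrier gene Stard4 rose by 1.55 and the desaturase gene Scd by 1.14.

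Immediate early genes, which cells switch on within minutes of a stimulus without making new protein, rose in DR+/+ islets. Of 42, 21 rose and 1, Gadd45g, fell (-0.98), with a median of 0.55, and the list averaged 8.44 and 8.40 in DR+/+ and 7.76 and 7.77 in F344. Ptgs2 had 7.17 and 7.45 in DR+/+ and 3.21 and 3.72 in F344 (difference 3.85, SE 0.22, adjusted p = 3.89e-06). Nr4a3, an orphan nuclear receptor, had 9.24 and 9.13 in DR+/+ and 6.51 and 6.38 in F344 and rose by 2.74, with further probe sets at 1.58 and 1.74. Egr2, a zinc finger factor, rose by 2.38 and Nfkbiz, a nuclear inhibitor of NF-kB, by 1.79, while a dimmer probe set of each did not pass (-0.23 for Egr2, 0.16 for Nfkbiz). Fos rose by 1.01 and Egr1 by 1.26. The rises came to 13 without F344 replicate 1 or without F344 replicate 2, and the 1 fall was lost without DR+/+ replicate 2 or F344 replicate 2. Of the 42, 0 were called higher and 0 lower with the Gapdh covariate. The JB arrays averaged 8.27 and 8.41 on this list, and 5 of the 42 were higher in DR+/+ than in JB and 7 lower (median 0.06).

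Several immediate early promoters are known to be driven through a cyclic AMP response element, TGACGTCA, which CREB binds. RefSeq promoters of the GRCr8 build, 300 bases each from 250 before to 50 after the annotated start, were searched for it on both strands. It was found in 525 of 27457 promoters (1.91%), in 4 of the 30 measured immediate early genes with a promoter in the set (13.3%) and in 4 of the 14 of these that rose (28.6%). The 4 were Maff (difference 0.95), Jund (0.74), Dusp1 (0.62) and Ier2 (0.57). The largest risers on the list, Ptgs2, Nr4a3, Egr2 and Nfkbiz, were not among them. Of the 21 risers, only the 14 had a promoter in the set. Maff had 6.82 and 6.31 in DR+/+ and 5.62 and 5.61 in F344, and Ier2 had 9.64 and 9.83 in DR+/+ and 9.15 and 9.18 in F344. The promoters of these 2 genes are printed because their element lies nearest to the start, 51 bases before it in Maff and 66 in Ier2, and the capitals mark the element. Maff lies at chr7:112792537-112792836 on the forward strand and Ier2 at chr19:40399123-40399422 on the forward strand.
Maff: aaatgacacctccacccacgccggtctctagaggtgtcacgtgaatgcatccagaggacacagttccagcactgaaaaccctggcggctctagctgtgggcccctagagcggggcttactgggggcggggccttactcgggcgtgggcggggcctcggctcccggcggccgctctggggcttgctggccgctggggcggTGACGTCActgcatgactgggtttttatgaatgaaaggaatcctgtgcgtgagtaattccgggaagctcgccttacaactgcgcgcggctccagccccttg
Ier2: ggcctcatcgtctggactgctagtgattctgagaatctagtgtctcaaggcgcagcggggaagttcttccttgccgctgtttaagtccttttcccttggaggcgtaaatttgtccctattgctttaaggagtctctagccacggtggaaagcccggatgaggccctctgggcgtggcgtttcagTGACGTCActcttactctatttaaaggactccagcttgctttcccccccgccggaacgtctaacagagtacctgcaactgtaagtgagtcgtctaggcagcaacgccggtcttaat
In Jund (chr16:18769722-18770021, reverse strand) the element began 221 bases before the start, and in Dusp1 (chr10:17184603-17184902, forward strand) 124 bases before it. The serum response element known as the CArG box was found in 1.64% of all promoters, in 16.7% of the 30 and in 21.4% of the 14. The AP-1 site TGANTCA was found in 7.33% of all promoters and in none of the 30. The TATA box TATAAA, searched on the forward strand, was found in 9.08% of all promoters, in 16.7% of the 30 and in none of the 14. The shorter TGACG, which every full element also holds, was found in 22% of all promoters, in 56.7% of the 30 and in 64.3% of the 14. A match describes the letters of the window and was not tested for binding.

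**Figure D4:**
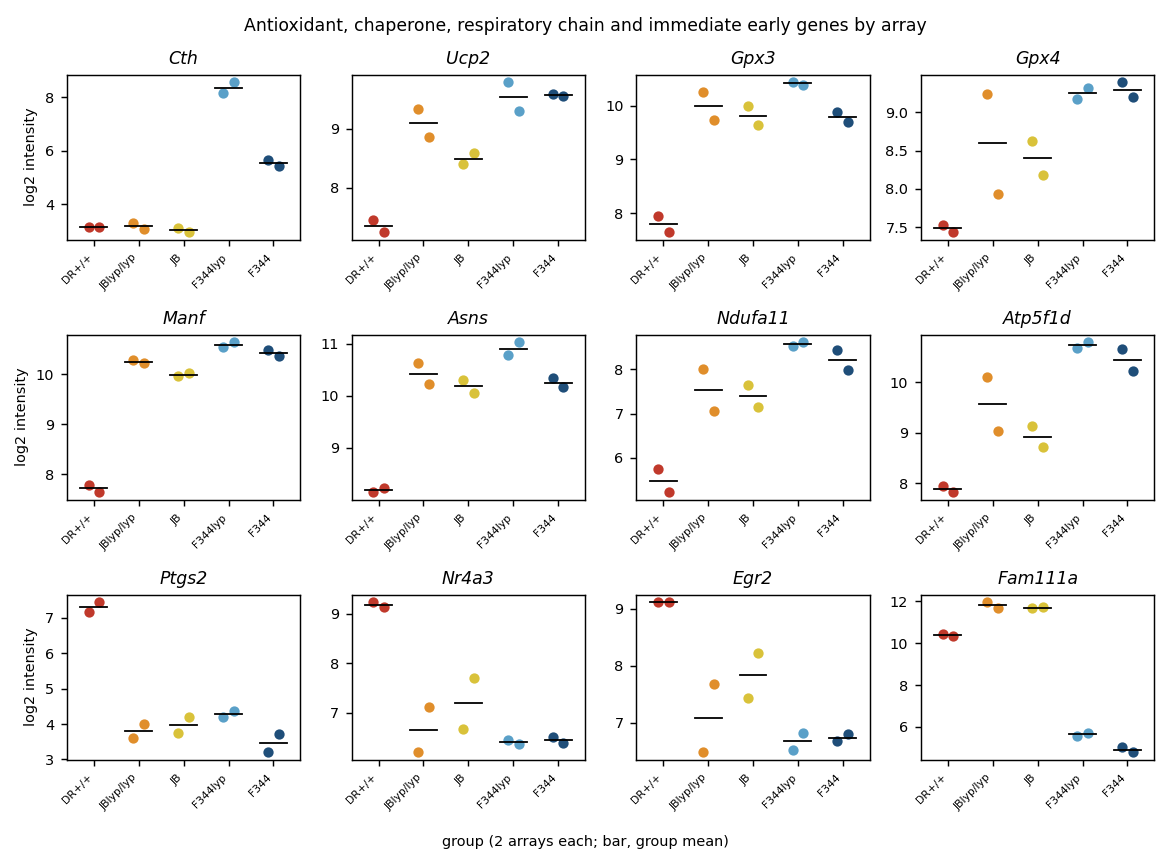
Log2 intensity of 12 antioxidant, chaperone, respiratory chain and immediate early genes, with Fam111a, in each of the 10 arrays, 2 points per group with a bar at the group mean. Manf is lowest in DR+/+ (7.78 and 7.64, against 10.50 and 10.37 in F344) and Ptgs2 highest (7.17 and 7.45, against 3.21 and 3.72 in F344), while Cth is low in JB (3.12 and 2.96) as well as in DR+/+ (3.14 and 3.15).

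Interferon response genes were divided, with 11 of 41 higher and 8 lower (median 0.08). Bst2, or tetherin, which holds budding viruses at the membrane, had 8.98 and 9.14 in DR+/+ and 7.27 and 7.16 in F344 and rose by 1.85, and Irgm, a GTPase of cell defence, rose by 1.54. Ifi27 and the chemokine gene Cxcl11 fell by 2.16 and by 1.66. Without DR+/+ replicate 1, 5 were lower. Against JB the list leaned to DR+/+, with 19 of 41 higher and 3 lower (median 0.59). Chemokine and inflammation genes were called higher in 12 of 35 cases and lower in 4 (median 0.10). Cxcl1, which draws neutrophils, had 9.11 and 9.11 in DR+/+ and 6.50 and 6.52 in F344 and rose by 2.60. Cxcl12, a stromal chemokine, rose by 2.29 and Tnfaip3, a brake on NF-kB, by 1.59. Of the dimmer probe sets of Cxcl12, 1 rose by 0.70 and 1 did not pass (0.05). Higher calls on this list came to 7 without either DR+/+ array or without F344 replicate 2.

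Of 18 RT1 genes, the rat major histocompatibility complex, 5 rose and 7 fell (median -0.13). RT1-T24-4, a class I gene, rose by 2.53 and RT1-DMb, which loads peptides on class II, fell by 1.41. For RT1-Ba and RT1-Bb, the class II chains, the brightest probe sets were higher in DR+/+ (1.65 and 2.34) and other probe sets of the same genes lower (-0.65 to -2.95 for RT1-Ba and -4.81 for RT1-Bb), all of them called, so that no direction is given for either, although both count among the 5. RT1 genes are polymorphic and close in sequence. Lower calls on the list came to 4 without DR+/+ replicate 2, to 3 without F344 replicate 1 and to 4 without F344 replicate 2. Of 14 antigen processing genes, 5 fell and 1 rose (median -0.28). The invariant chain gene Cd74 fell by 1.39, the immunoproteasome gene Psmb10 by 1.33 and the cathepsin gene Ctss by 0.95. The peptide trimming gene Erap1 was higher by 1.05, but only the F344 arrays stood apart (8.40 and 8.25). Erap1 read 9.43 and 9.31 in DR+/+, 9.50 and 9.29 in JB, 9.50 and 9.28 in JBlyp/lyp and 9.15 and 9.30 in F344lyp. Without any 1 of the 4 arrays 3 were lower.

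Macrophage genes fell more often than they rose, with 13 of 28 lower and 2 higher (median -0.41). C1qa, which encodes a chain of the complement starter C1q, had 4.93 and 5.38 in DR+/+ and 8.02 and 7.95 in F344 (difference -2.83, SE 0.18, adjusted p = 5.86e-06). C1qc, Mrc1 and Lyz2 fell by 2.63, by 1.55 and by 1.44. Of the defining markers Cd68 fell by 0.49 and Csf1r did not pass (-0.38). The risers were Ptprc (1.18) and Mpeg1 (1.09). Without F344 replicate 1, 7 were lower, and without any 1 of the 4 arrays 1 was higher. Few T cell genes were called, with 3 of 21 lower and 1 higher (median -0.16), and the defining markers Cd3e (-0.23), Cd3g (-0.25) and Cd2 (-0.16) did not pass. Of these calls, the rise of Cd69 (0.83) was lost without any 1 of the 4 arrays, and 1 gene was lower without F344 replicate 1.

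The Gimap genes encode GTPases of lymphocytes and endothelium, among them the gene hit by lyp. Of 5 measured, 4 rose and none fell (median 1.20). Gimap5 had 8.22 and 8.41 in DR+/+ and 7.03 and 6.82 in F344 and rose by 1.39 (SE 0.29, adjusted p = 0.00467). Gimap1, Gimap6 and Gimap7 rose by 1.35, by 1.20 and by 0.64, the last call being lost without any 1 of the 4 arrays. All 4 were higher in DR+/+ than in JB as well (median 1.37). The endothelial list, given above, moved in the same arrays, and its part in the Gimap result was not tested. With the Gapdh covariate, the median of the Gimap list was -0.08.

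**Figure D5:**
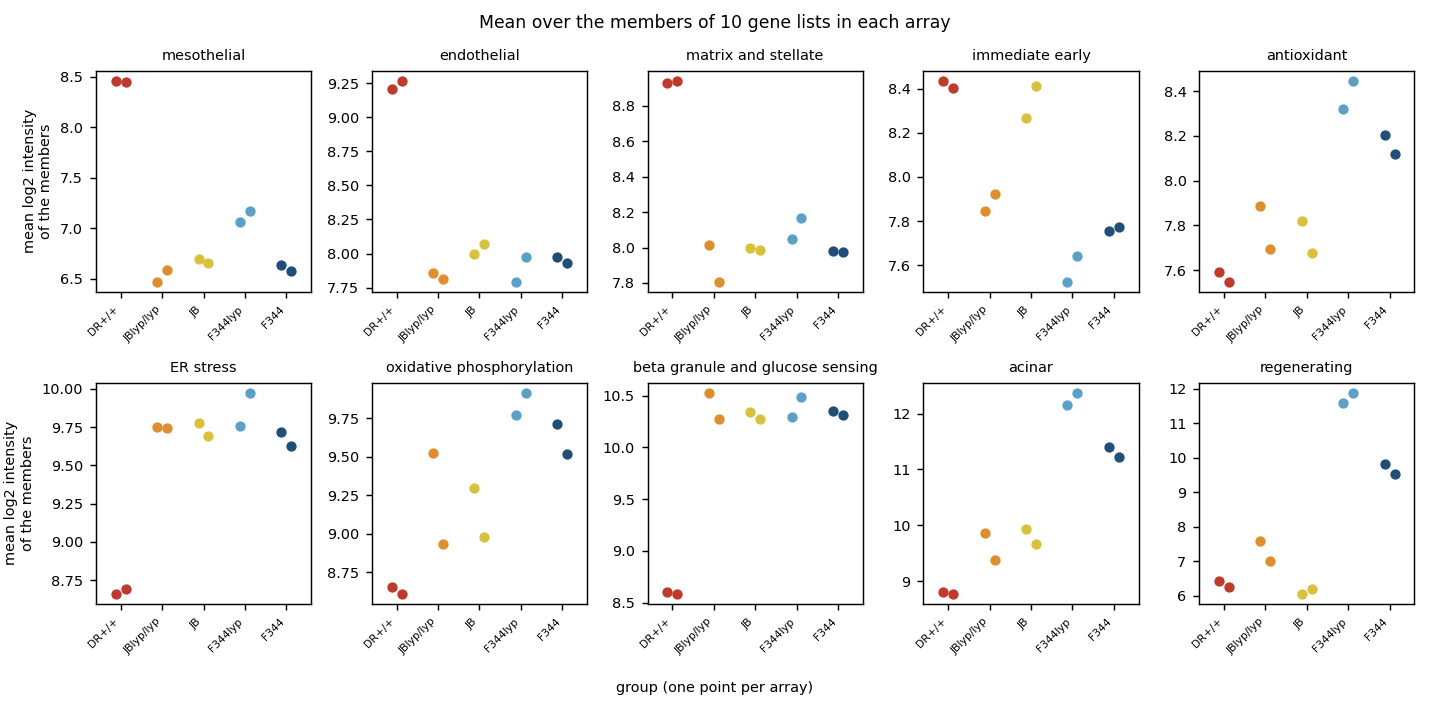
Mean log2 intensity over the members of 10 gene lists in each array, 2 points per group in the order DR+/+, JBlyp/lyp, JB, F344lyp and F344. The DR+/+ points stand clear above the other 8 arrays for the mesothelial list (8.46 and 8.45, against 6.64 and 6.58 in F344) and clear below them for the ER stress list (8.66 and 8.69, against 9.72 and 9.63 in F344), while for the immediate early and regenerating lists JB lies near DR+/+.

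The direct test of DR+/+ minus JB, in which F344 has no part, called 8793 probe sets (28.3%) and 4833 genes (34%). Both comparisons share the DR+/+ arrays. Among genes that fell in both, the largest differences from JB were those of C2cd4b, a nuclear protein that lies at a type 2 diabetes locus in humans, and of Prlr, the prolactin receptor that drives beta cell growth in pregnancy. C2cd4b had 5.11 and 4.65 in DR+/+, against 9.85 and 8.90 in JB and 8.77 and 8.42 in F344. Prlr had 5.87 and 6.96 in DR+/+, against 10.82 and 10.48 in JB and 9.72 and 9.72 in F344. The dimmer probe sets of Prlr fell by less against F344 (-0.58 and -1.10). Next in size came Plppr4, Resp18, a protein of endocrine granules, and Disp2, while a dimmer probe set of Plppr4 did not pass against F344 (0.16). For all 5 genes both DR+/+ arrays lay below all JB and F344 arrays, which is no further result for genes picked by size.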

How the data were processed

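The deposited values are log2 intensities per probe set of an Affymetrix rat expression array, which the authors made, per the submitters' processing notes, with RMA and GCOS. No version or setting is given. RMA subtracts background, sets the arrays to 1 distribution and summarises probes, so that a change shared by most genes would be hidden. The log2 values were used as deposited. Depth does not apply to arrays, and the number of arrays limits the precision.

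A mean per group was fitted to all 10 arrays with limma 3.58.1 (R 4.3.3), and DR+/+ minus F344 and DR+/+ minus JB were tested with moderated variances, the second to find where DR+/+ differs from JB. P-values were adjusted over 31042 probe sets by Benjamini-Hochberg, and every adjusted p in the text comes from this fit. Of the probe sets, 20826 had 1 gene symbol, 436 several and 9780 none, and none was named from those with several. Each of the 14217 genes was taken at its brightest probe set by mean value. Of the 144 named genes, 35 had 55 further probe sets. Of these 55, 21 were called in the same direction and 4 in the opposite one, and 16 had at least 0.5 of the difference. Simulated data had the size of DR+/+ minus F344, with 200 changed probe sets among 31042. There, 2% of probe sets changed by 0.5 were recovered, 51.6% of those changed by 1 on the log2 scale and 88.4% of those changed by 2. Of the calls 4.72% were false. The real comparison called 32.9% of probe sets, and recovery depends on that share, so these rates need not hold for it.

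The rule named the 14 largest rises and 14 largest falls among called genes whose arrays did not overlap (uncharacterised loci passed over), up to 4 called members of each of 32 gene lists with the largest differences, 6 islet hormone genes, and the 5 largest rises and falls from JB among genes called in both comparisons. The comparison and the lists were chosen with earlier results of these data known, and genes named beyond the rule were chosen after their values were seen. Promoter sequences are RefSeq's, build GRCr8. The alternatives were a fit to the 4 arrays alone, the replicate number as a block, a variance trend, a filter on dim probe sets, quantile normalization, median centring, array weights, the Gapdh 3′ minus 5′ difference as a covariate, a minimum log2 difference of 1, the mean of a gene's probe sets, F344 and F344lyp together as control, and leaving out each array.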

Additional observations from a re-analysis of the deposited data

Results flagged for a closer look

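The 10 genes given here had the 5 largest rises and 5 largest falls of DR+/+ from JB among genes called in both comparisons. A call against JB means that the difference of DR+/+ from F344 was unlike that of JB from F344. As the genes were picked by that call and its size, their calls and their lack of overlap with JB are no further result. Over all genes, 4833 (34%) were called for DR+/+ minus JB. Upk1b was higher in DR+/+ than in JB by 4.21 (adjusted p = 3e-06), Slc26a3 by 4.69 (adjusted p = 2.75e-06), Bnc1 by 4.20 (adjusted p = 6.17e-06), Slc16a1 by 3.82 (adjusted p = 2.73e-05) and Scel by 3.71 (adjusted p = 6.17e-06). Both DR+/+ arrays lay above both JB arrays for each of these 5 genes. C2cd4b differed by -4.50 (adjusted p = 3.31e-05), Prlr by -4.24 (adjusted p = 1.6e-05), Plppr4 by -3.78 (adjusted p = 2.75e-06), Resp18 by -3.55 (adjusted p = 3.17e-05) and Disp2 by -3.53 (adjusted p = 6.2e-06), and both DR+/+ arrays lay below both JB arrays for each of them.

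The Gapdh control probe sets, which stood outside the test, had a 3′ minus 5′ difference of 3.18 in DR+/+ replicate 1 and 3.39 in DR+/+ replicate 2, above 2.43 and 2.35 in the F344 arrays. JB arrays read 3.71 and 3.31. Of the 144 named genes, 16 kept their call for DR+/+ minus F344 with this difference as a covariate. They were Fam111a, Upk1b, Slc26a3, Lrrn4, Olr1, Sox17, Prss3bl1, Reg3a, Prss2, Cuzd1, Trh, Ptprn2, Pcsk2, Manf, C1qa and Plppr4. The differences of genes that lost their call were often about as large with the covariate, for example Pdia2 (-4.18), Wt1 (3.90) and Pdx1 (-2.59). Others were smaller with it, for example Onecut1 (0.46) and Hsp90ab1 (-0.23). Of the 144 genes, 142 kept their direction. The slope of the covariate rests only on the small gaps between the 2 arrays of each group. These sizes and directions are therefore poorly determined, and no conclusion is drawn from them.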

How the results depend on the processing

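For DR+/+ minus F344, with the Gapdh 3′ minus 5′ difference as a covariate, 90 probe sets passed (49 higher and 41 lower) and 48 genes (22 higher and 26 lower), and with a log2 difference of at least 1 also required 4835 probe sets (2288 higher and 2547 lower) and 2800 genes (1108 higher and 1692 lower). Leaving out 1 array gave 6217 to 7780 probe sets (2982 to 3759 higher, 3235 to 4021 lower) and 3568 to 4354 genes (1468 to 1759 higher, 2072 to 2595 lower), with the fewest probe sets without F344 replicate 1. In these fits fewer samples enter the test, and a lone array is assumed to vary like the other groups. With the same covariate 142 of the 144 named genes kept their direction, though directions and sizes with it are poorly determined. DR+/+ minus JB had 6103 calls with the covariate, against 8793 without it. For DR+/+ minus JB the minimum difference left 4050 probe sets (1897 higher and 2153 lower), and the filter on dim probe sets left 2639 higher. Same-numbered arrays deviated together weakly (r = 0.0788 for DR+/+ with F344 and -0.0887 for DR+/+ with JB). These values cover only those group pairs, so they cannot tell whether same-numbered arrays were paired or shared a batch. With the replicate block 11085 probe sets and 6189 genes passed for DR+/+ minus F344, against 10206 and 5700 without it. For DR+/+ minus JB 9643 probe sets passed with the block, against 8793 without it. A fit to the 4 arrays of DR+/+ and F344 alone gave 13263 calls for DR+/+ minus F344. Quantile normalization gave 10607 calls with 48.8% of them higher and median centring 10250 with 50%, against 47.3% as deposited. Of the 144 named genes 116 kept direction and call under every alternative but the covariate. Reversed values were RT1-Bb (-1.23) and RT1-Ba (-0.73) with the mean of a gene's probe sets, and Gimap5 (-0.078) and Gimap7 (-0.35) with the covariate; the cause was not tested beyond these constructions. Signal over background limits what dim genes can show.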

Other observations

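Some gene lists showed few calls between DR+/+ and F344 islets. Of 40 cell cycle genes, 3 rose and 5 fell (median 0.10), with the cyclin gene Ccnd2, which beta cells need to divide, at 8.26 and 9.16 in DR+/+ and 10.51 and 10.63 in F344 (difference -1.86, SE 0.30). The checkpoint gene Bub1 fell by 0.95, and the replication gene Mcm5 rose by 0.90. The anaphase gene Cdc20 was lower by its brightest probe set (-1.18), while its other 4 probe sets were not called (-0.57 to 0.16) and the mean over all 5 gave -0.32 (adjusted p = 0.0837). Without either F344 array 1 was higher, and without F344 replicate 2, 3 were lower. Of 25 intestinal genes, 3 rose and 3 fell (median -0.16), among them Slc26a3, described above, the cadherin gene Cdh17 (1.38, lost without DR+/+ replicate 1 or either F344 array, and 0.30 with an adjusted p of 0.481 against the F344 and F344lyp arrays together) and the brush border gene Vil1 (-1.79). Cdh17 read 6.84 and 7.05 in F344lyp, above both DR+/+ arrays (6.43 and 5.92), and with F344 and F344lyp together as the control 1 gene of the list was higher and 11 lower. The other defining intestinal markers, Fabp1 (0.28) and Cdx2 (-0.36), did not pass. Higher and lower calls on this list each came to 1 without F344 replicate 1, higher calls also to 1 without DR+/+ replicate 1 or F344 replicate 2, and lower calls to 1 without DR+/+ replicate 2.

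Of the 16 nerve and Schwann genes, 6 fell and 3 rose (median -0.31). The neuropeptide gene Npy had 7.53 and 7.55 in DR+/+ and 10.26 and 9.81 in F344 (difference -2.49, SE 0.28, adjusted p = 0.00011). Vip, the vasoactive intestinal peptide, was lower by 1.94, but only the F344 arrays stood apart (9.51 and 9.55). Vip read 7.61 and 7.55 in DR+/+, 7.69 and 7.93 in JB, 8.21 and 7.89 in JBlyp/lyp and 7.72 and 7.70 in F344lyp. The neurofilament gene Nefl fell by 1.77, while the Schwann cell genes Scn7a (1.38), S100b (1.10) and Sox10 (0.51) rose.

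Of 15 mast cell genes, 1 rose and 3 fell (median -0.05). The protease genes Tpsab1 (-0.82), Mcpt1 (-0.70) and Tpsb2 (-0.43) were the fallers and the factor gene Gata2 (0.83) the riser, with 1 lower call without DR+/+ replicate 2 or F344 replicate 1. The defining markers Cpa3 (-0.27) and Ms4a2 (0.15) did not pass. Of 9 B cell genes, 2 rose and 1 fell (median 0.15), namely Jchain (1.87), Cr2 (0.97) and Cd37 (-0.85), and Cd79b did not pass (-0.09). The other 4 probe sets of Cr2 (-0.35 to 0.48) and the dimmer probe set of Jchain (-0.004) were not called. Without DR+/+ replicate 1, DR+/+ replicate 2 or F344 replicate 1, 1 was higher, and without DR+/+ replicate 2 or F344 replicate 1 none was lower. Of 6 erythroid genes, 2 rose (Hba-a3 by 0.82 and Ahsp by 0.50) and none fell (median 0.21), with 1 higher without any 1 of the 4 arrays.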
